A study of Rattus norvegicus with 18 samples.

Results

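Col1a1, Col4a1, Bgn, Timp1 and Ltbp4 are 5 genes of the extracellular matrix and of its control. They were taken as all clones annotated to those symbols on a spotted cDNA array of rat kidney, which gave 5 clones of 2304, each printed as 2 spots. The genes had been chosen on how their ratio of injured over control kidney looked in these same arrays, so those ratios are described here and not tested. The study set sham-operated rats against rats whose kidneys had been left without blood flow for 52 min and then reperfused, and which recovered for 35 days, called ARF rats after acute renal failure. Total RNA of whole kidney was used from 12 rats, in 6 pairs of 1 sham and 1 ARF rat named A to F. The RNAs of a pair were hybridised together on 2 arrays, 1 with sham in Cy3 and 1 with sham in Cy5, and 6 further arrays compared sham rats with one another. No genetic change or drug is named for any group, and the sources used here give no strain, sex, age or details of the sham operation.

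The fibrillar collagens form the rope-like fibres of interstitial scar, while type IV collagen forms the sheet-like network of basement membranes around tubules and in the glomerulus. Small leucine-rich proteoglycans bind collagen fibres and growth factors, tissue inhibitors of metalloproteinases block the enzymes that degrade matrix, and latent TGF-beta binding proteins hold the growth factor TGF-beta in the matrix until it is released. In kidney these genes are followed because matrix accumulates in the interstitium when injury heals incompletely.

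The deposited values are normalized log ratios of the 2 dyes, with a mean of 0 on every array. Positive values were read as higher in ARF; this direction was assumed, and no value in the data tests it. The sources used here name no log base. The mean of 0.53 for Col1a1 would be a ratio of 1.45 on base 2, 1.70 on natural logs and 3.41 on base 10, so values are left on the deposited log scale. A pair value is the mean of its 2 arrays, and errors are SDs over pairs. Spots with a value numbered 1586 to 2786 of 4608 on the ARF-sham arrays and 914 to 2232 on the sham-sham arrays. In RNA of whole kidney, fewer cells of a type and less RNA per cell cannot be told apart.

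Promoters were available for Col4a1, Timp1 and Ltbp4, and they are shown because these genes were higher in ARF kidneys of the same pairs. Each line holds the 250 bases before the RefSeq start of the gene (build GRCr8), at chr16:84885347-84885596 on the plus strand, chrX:3771123-3771372 on the minus strand and chr1:91759808-91760057 on the minus strand. Capitals mark GC boxes (GGGCGG, or CCGCCC on the other strand) and CCAAT boxes (CCAAT, or ATTGG on the other strand).
Col4a1: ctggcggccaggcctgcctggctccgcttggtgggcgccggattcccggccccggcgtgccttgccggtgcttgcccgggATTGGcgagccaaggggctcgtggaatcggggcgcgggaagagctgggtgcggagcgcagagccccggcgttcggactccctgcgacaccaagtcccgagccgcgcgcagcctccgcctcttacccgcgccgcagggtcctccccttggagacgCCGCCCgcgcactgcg
Timp1: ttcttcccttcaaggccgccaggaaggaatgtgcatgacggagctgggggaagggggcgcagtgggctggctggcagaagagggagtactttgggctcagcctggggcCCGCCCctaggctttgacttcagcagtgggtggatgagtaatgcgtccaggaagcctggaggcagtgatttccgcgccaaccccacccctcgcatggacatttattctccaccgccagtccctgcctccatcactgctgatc
Ltbp4: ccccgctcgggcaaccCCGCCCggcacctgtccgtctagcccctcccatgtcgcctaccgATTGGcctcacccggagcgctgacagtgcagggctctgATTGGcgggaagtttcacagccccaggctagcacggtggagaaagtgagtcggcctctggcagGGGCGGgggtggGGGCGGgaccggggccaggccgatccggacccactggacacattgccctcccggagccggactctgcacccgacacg
The search covered 300 bases, these and the 50 after the start, on both strands. A GC box lay in all 3 windows, against 33.1% of 33469 rat promoter windows of the same length. It began at position -16 and again at 39 in Col4a1, at -142 in Timp1, and at -234, -89 and -77 in Ltbp4, counted from the start site. A CCAAT box lay in Col4a1 and Ltbp4, 2 of 3, against 37.5% of all windows. The AP-1 motif TGANTCA (7.33% of all windows), the TATA motif TATAAA (14.2%) and the Smad palindrome GTCTAGAC (0.20%) were in 0 of 3. The windows were rich in G and C, at 75.0% in Col4a1, 61.3% in Timp1 and 71.0% in Ltbp4, against a median of 51.7%, and a GC box is made of those letters. None of the motifs shown overlaps another. A match here describes letters, not a bound site. A motif not found does not show that a site is absent, since only exact letters were searched. Variants such as tgagtaa in the Timp1 line, close to the AP-1 motif, were not counted.

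The collagens come first. Col1a1 encodes the alpha 1 chain of type I collagen, the main fibrillar collagen of scar. Its array with sham in Cy3 read 0.63 in pair A, 0.16 in B, -0.09 in C, 0.90 in E and 0.95 in F, and had no value in D. Its array with sham in Cy5 read 0.63 in A, 0.32 in B, 0.15 in D, 0.53 in E and 0.13 in F, and had no value in C. Col1a1 was thus higher in ARF on 9 of 10 arrays, with pairs A, E and F high, B low and C alone below 0. The 4 pairs with both arrays averaged 0.53 ± 0.21 (SD, n = 4), and all 6 pairs, with C and D resting on 1 array each, averaged 0.36 ± 0.32 (SD, n = 6). The arrays of pair F disagreed most, and on the lower of them the 2 spots of Col1a1 read -0.08 and 0.35.

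Col4a1 encodes the alpha 1 chain of type IV collagen of basement membranes. With sham in Cy3 it read 0.60 in pair A, 0.18 in B, -0.03 in C, 0.54 in E and 0.53 in F. With sham in Cy5 it read 0.47 in A, 0.15 in B, 0.23 in D, 0.63 in E and 0.54 in F. As for the fibrillar chain, pairs A, E and F were high, here together at 0.53 to 0.58, and B was low at 0.17. Its mean was 0.46 ± 0.19 (SD, n = 4) over pairs with both arrays and 0.34 ± 0.25 (SD, n = 6) over all pairs. Col3a1, the chain of type III collagen that is laid down with type I, was the other collagen with both arrays in at least 4 pairs. Its pair values were 0.56 in A, -0.03 in C, 0.39 in E and 0.20 in F, a mean of 0.28 ± 0.25 (SD, n = 4) that did not pass (limma, adjusted p = 0.252). Of 26 collagen genes listed, 6 were on the array. Col5a2 had 2 pairs, each on 1 array, at 0.25 and 0.42, Col2a1 had 2 pairs at 0.07 and 0.17, and Col11a1 had no value.

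**Figure D1:**
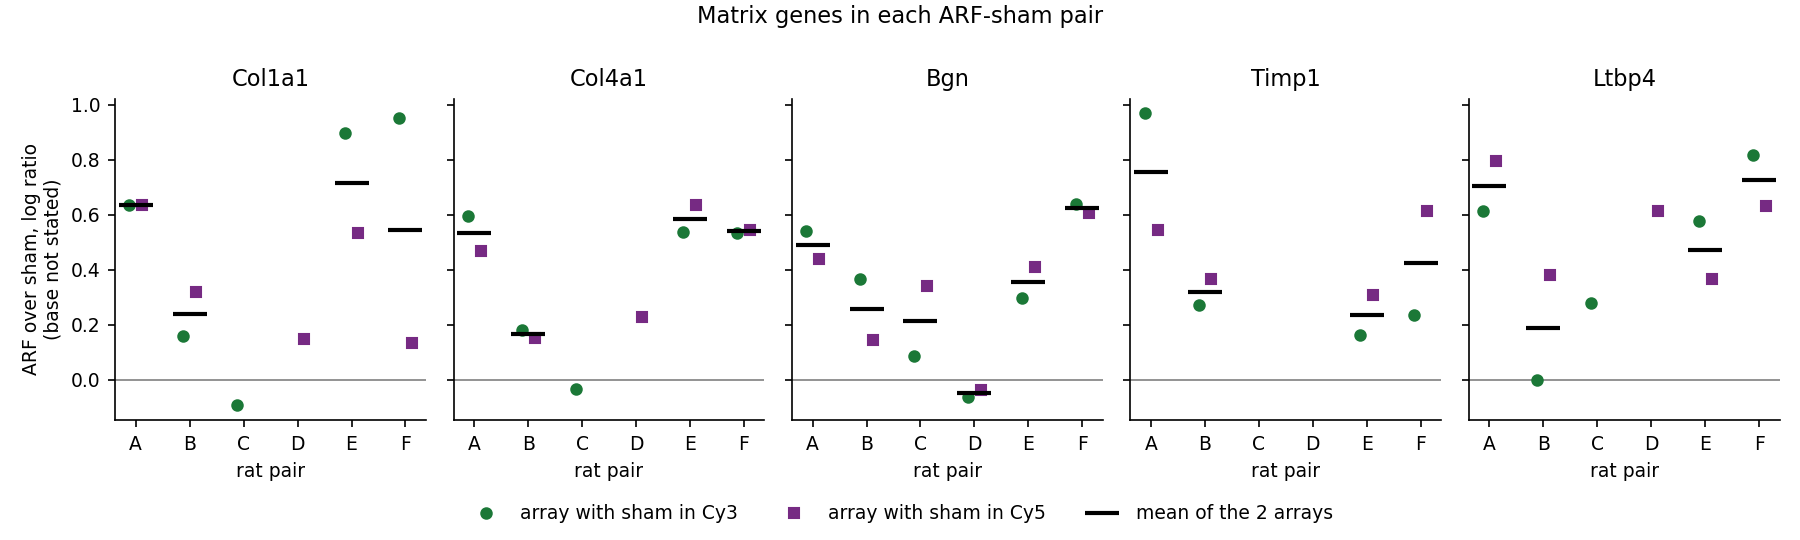
Log ratio of ARF over sham kidney (y axis, base not stated) in rat pairs A to F (x axis) for the 5 genes; circles are arrays with sham in Cy3, squares arrays with sham in Cy5, and bars the mean of the 2 arrays. Pairs A, E and F lie above 0 for every gene, and in pairs C and D most genes have 1 array or none.

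Genes that cut, fold and crosslink collagen stood near 0 as a list. Of 22 listed, 9 were measured in at least 4 pairs, and 0 passed (limma; 1 at an unadjusted p under 0.05). Their median was 0.02, against 0.02 over all 947 clones tested. The highest was Plod1, a lysyl hydroxylase, at 0.09 ± 0.11 (SD, n = 4), and the lowest was Ctsl, the protease cathepsin L, at -0.21 ± 0.27 (SD, n = 6). Serpinh1, the collagen chaperone, was at 0.08 ± 0.20 (SD, n = 6).

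Bgn encodes biglycan, a small leucine-rich proteoglycan, and is the one of the 5 genes with both arrays in all 6 pairs. With sham in Cy3 it read 0.54, 0.37, 0.09, -0.06, 0.30 and 0.64 in pairs A to F. With sham in Cy5 it read 0.44, 0.15, 0.34, -0.04, 0.41 and 0.61. Biglycan was above 0 in 5 of 6 pairs, highest in F and A, and just below 0 on both arrays of pair D, with a mean of 0.31 ± 0.23 (SD, n = 6).

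Among 49 proteoglycans and glycoproteins listed, 10 were measured, and the 9 besides Bgn had a median of 0.10 with 5 above 0. In the fit to pair values 0 of the 9 passed (limma; 2 at an unadjusted p under 0.05). Mgp, the matrix Gla protein that inhibits calcification, was highest at 0.54 ± 0.54 (SD, n = 6; adjusted p = 0.144, limma). Its pair values were 1.16, 0.62, -0.40, 0.35, 0.58 and 0.93 in A to F, so pair C ran against the other pairs. Leaving out each pair in turn gave means of 0.42 to 0.73, and it passed only without pair C (adjusted p = 0.017, against 0.169 to 0.556 without any other pair, limma). Sdc2, the cell surface proteoglycan syndecan 2, was lowest at -0.31 ± 0.16 (SD, n = 4; adjusted p = 0.129, limma), and below 0 in 4 of 4 pairs. In the fit to 12 arrays with the rat pair as a replicate block both passed, Mgp with an adjusted p of 0.025 and Sdc2 with 0.0065 (limma). That fit counts the 2 arrays of a pair as partly separate, though they hold the same 2 RNAs. Dcn, decorin, the closest relative of biglycan measured, was at 0.22 ± 0.43 (SD, n = 4), with 0.76 in pair A and -0.30 in pair D.

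Timp1 encodes a secreted inhibitor of metalloproteinases. With sham in Cy3 it read 0.97 in pair A, 0.27 in B, 0.16 in E and 0.23 in F, and with sham in Cy5 it read 0.54, 0.36, 0.31 and 0.61 in the same pairs. Neither array of pair C or D had a value. All 8 arrays lay above 0, with a mean of 0.43 ± 0.23 (SD, n = 4), and pair A was highest while F, high for the collagens, was in the middle. Of these arrays 3 rested on 1 spot each, among them both of pair E. The inhibitors differed among themselves. Timp2 was at 0.16 ± 0.20 (SD, n = 6; adjusted p = 0.358, limma) and Timp3, the inhibitor bound to the matrix, was the lowest of its list at -0.11 ± 0.17 (SD, n = 5; adjusted p = 0.514, limma). Of 33 proteases and inhibitors listed, 6 were measured, and 0 of the 5 besides Timp1 passed (limma; 0 at an unadjusted p under 0.05), with a median of 0.03. The collagenase Mmp14, with both arrays in 3 pairs and so outside the fit, was above 0 in 5 of 5 pairs with any array, at 0.39 ± 0.22 (SD, n = 5). The gelatinase Mmp2 was above 0 in 4 of 4, at 0.29 ± 0.12 (SD, n = 4), mostly from single arrays. Others of the list outside the fit lay below 0: the meprin subunit Mep1b at -0.17 ± 0.32 (SD, n = 5), the sheddase Adam17 at -0.13 ± 0.10 (SD, n = 4), and A2m and Mmp23, each in 1 pair, at -0.18 and -0.20. Mmp12 was at 0.05 ± 0.09 (SD, n = 2) and Mmp13 had no value.

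Ltbp4 encodes a latent TGF-beta binding protein that also takes part in elastic fibre assembly. With sham in Cy3 it read 0.61 in pair A, -0.00 in B, 0.28 in C, 0.58 in E and 0.82 in F. With sham in Cy5 it read 0.80 in A, 0.38 in B, 0.61 in D, 0.37 in E and 0.63 in F. Ltbp4 was higher in ARF in 6 of 6 pairs with any array. Its single array of pair D, at 0.61 from 1 spot, was the highest pair D value among the 4 genes measured there. Its mean was 0.52 ± 0.25 (SD, n = 4) with both arrays and 0.50 ± 0.22 (SD, n = 6) with any. Eln, elastin itself, was above 0 in 4 of 4 pairs, at 0.29 ± 0.11 (SD, n = 4), with both arrays in 2 of them. The rest of the TGF-beta pathway stood near 0. Of 47 genes listed, 9 were measured, and 0 of the 8 besides Ltbp4 passed (limma; 0 at an unadjusted p under 0.05), with a median of 0.03. Fst, the activin antagonist follistatin, was highest of these at 0.12 ± 0.31 (SD, n = 4), and Smad4, the shared signal transducer, was lowest at -0.05 ± 0.16 (SD, n = 5). Ccn2, connective tissue growth factor and a known target of TGF-beta, was at -0.03 ± 0.45 (SD, n = 6), with 0.63 in pair A and -0.76 in pair C.

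**Figure D2:**
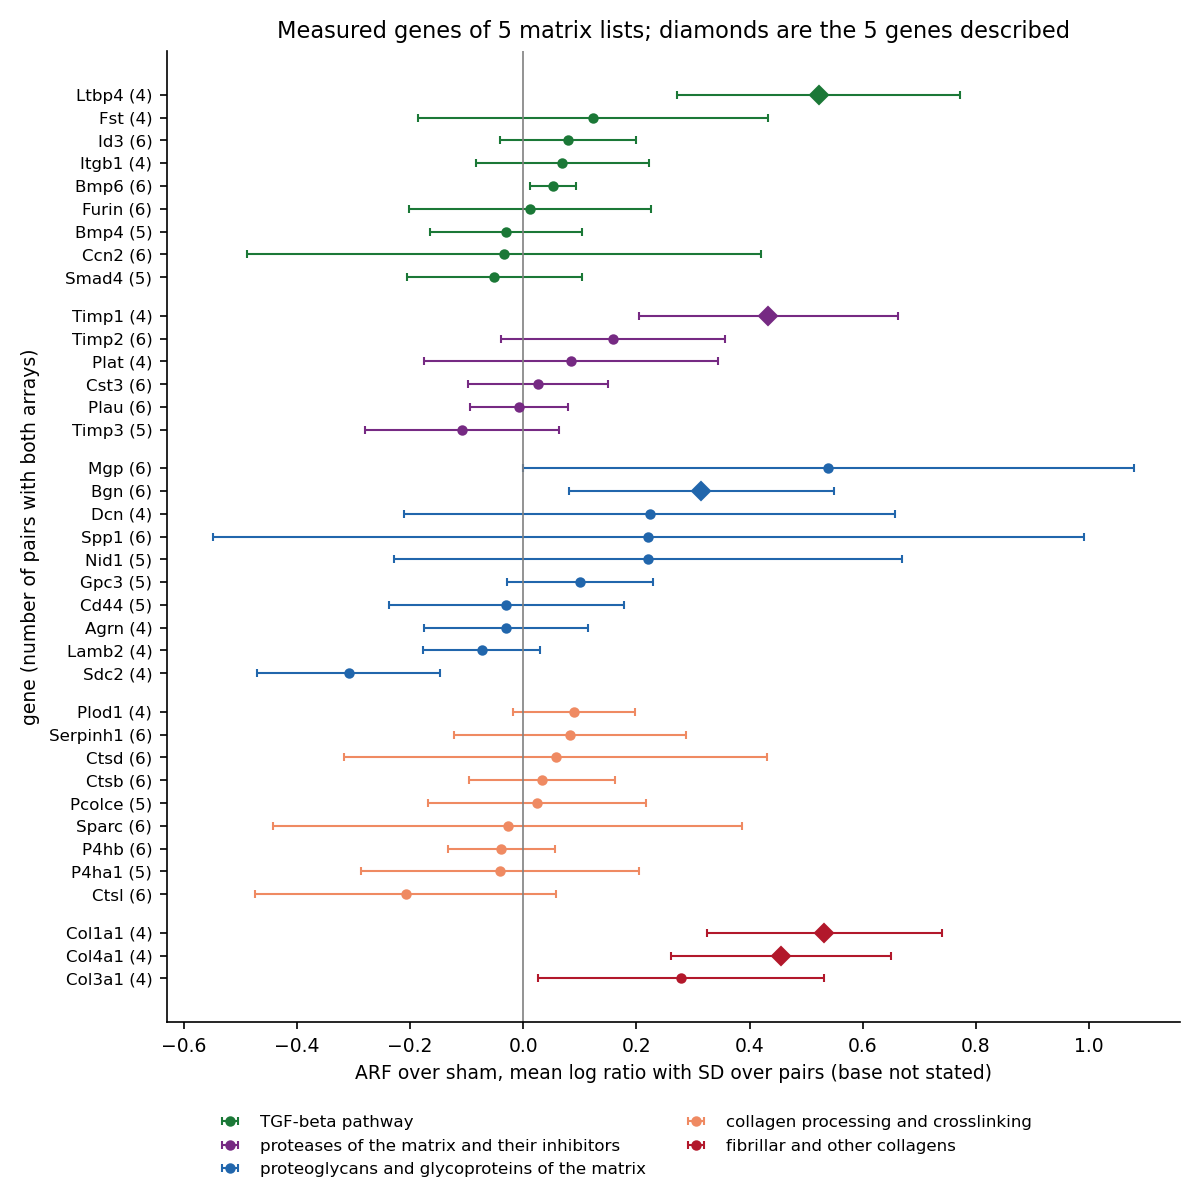
Mean log ratio of ARF over sham with SD over pairs (x axis, base not stated) for every gene of 5 matrix lists with both arrays in at least 4 pairs (y axis, number of pairs in brackets); colours are lists and diamonds the 5 genes described. The 32 other clones spread around 0 with a median of 0.03, and Mgp is the one whose mean exceeds that of Col1a1.

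Across the 5 matrix lists, 32 clones other than the 5 genes were measured. None of the 32 passed in the fit to pair values (limma; 4 at an unadjusted p under 0.05), and Mgp and Sdc2, in opposite directions, did in the replicate block fit. Their median was 0.03 and 59.4% were above 0, against a median of 0.02 and 54.1% over all 947 clones tested. By mean, Col1a1 was 5th highest of the 947, Ltbp4 6th, Col4a1 8th, Timp1 10th and Bgn 18th, a placing that follows from how they were chosen. Over all clones 9 of 947 passed (0.950%), 3 higher and 6 lower in ARF, with 42 in the replicate block fit. Col1a1 was the 1 of the 5 genes among the 9, and nothing is read from that, since the choice used the same values. The count of 9 fell to 4 without pair A, 1 without B, 0 without E and 0 without F (68 and 59 at an unadjusted p under 0.05, limma), and was 19 without C and 18 without D.

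The values of the 5 genes differed from pair to pair. Of 60 possible values on ARF-sham arrays 50 were present, and 45 of the 50 were above 0. In pair A the median of the 5 genes was 0.63, in E 0.47 and in F 0.54, and in these pairs all 5 were above 0. In B all 5 were above 0 as well, but the median was 0.24. In C the median was 0.09, with 2 of 4 genes above 0, and in D it was 0.19, with 3 of 4 above 0. The array of pair C with sham in Cy5 and the array of pair D with sham in Cy3 held a value for Bgn alone among the 5. The arrays of pairs C and D carried 1586 to 2003 spots with a value and those of A, E and F 2224 to 2786, B having 1748 and 1920, so the low pairs were also the shallow ones. The part of depth in their lower values was not tested.

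The dye orientation was a measure that the choice of genes had not used. The difference between orientations, halved, was 0.13 ± 0.22 for Col1a1 and 0.0061 ± 0.047 for Col4a1 (SD, n = 4 each), -0.0029 ± 0.083 for Bgn (SD, n = 6), and -0.024 ± 0.17 for Timp1 and -0.021 ± 0.15 for Ltbp4 (SD, n = 4 each). None of the 5 passed (limma, adjusted p from 0.256 to 0.957; 0 at an unadjusted p under 0.05). Over all clones 152 of 947 passed for the same dye difference, 16.1%. For Col4a1 and Bgn the orientation moved values by far less than the pairs did, while for Col1a1 its spread was as wide as that between pairs.

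The sham-sham arrays show how far control kidneys differ among themselves, with no injury. Here a value compares 1 sham rat with another, so its sign depends on which rat is in which channel, and these arrays were not repeated with dyes exchanged. Col1a1 read 0.13, 0.49, 0.03 and -0.01 on arrays R1, R2, R5 and R6. Col4a1 read 0.14, -0.15, -0.18, -0.08, -0.09 and -0.05 on R1 to R6. Array R2 thus set sham rats A and E 0.49 apart for type I collagen, close to its mean ARF-sham value. Type IV collagen stayed within 0.18 on every sham-sham array. On an array without its dye exchange, a difference between rats and one between dyes cannot be told apart. These values rest on the exchange of row blocks in the sham-sham columns, which was chosen after the values were seen; on the rows as deposited the mean of Col4a1 was -0.40 and passed (limma, adjusted p = 0.038), against -0.07 (adjusted p = 0.506, limma) after the exchange. Bgn read 0.03, 0.24 and -0.17 on R1, R2 and R6. Timp1 read -0.02, 0.02, 0.19 and 0.30 on R1, R2, R5 and R6. Ltbp4 read 0.18, -0.02, 0.13, -0.22 and 0.10 on R1, R2, R4, R5 and R6. In all 12 of 22 values were above 0. Of the 4 genes with at least 4 arrays, 0 had a mean that passed against 0 (limma, adjusted p from 0.311 to 0.821; 0 at an unadjusted p under 0.05), where 24 of 857 clones passed, 2.80%. Leaving out R4 or R5 brought that count of clones to 0 (138 and 152 had an unadjusted p under 0.05, limma), leaving out R3 to 4 and leaving out R6 to 13. Arrays that share a rat are not independent, so these p-values are only a guide. A mean near 0 does not show that sham rats were alike, since the sign of each value depends on the channels.

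**Figure D3:**
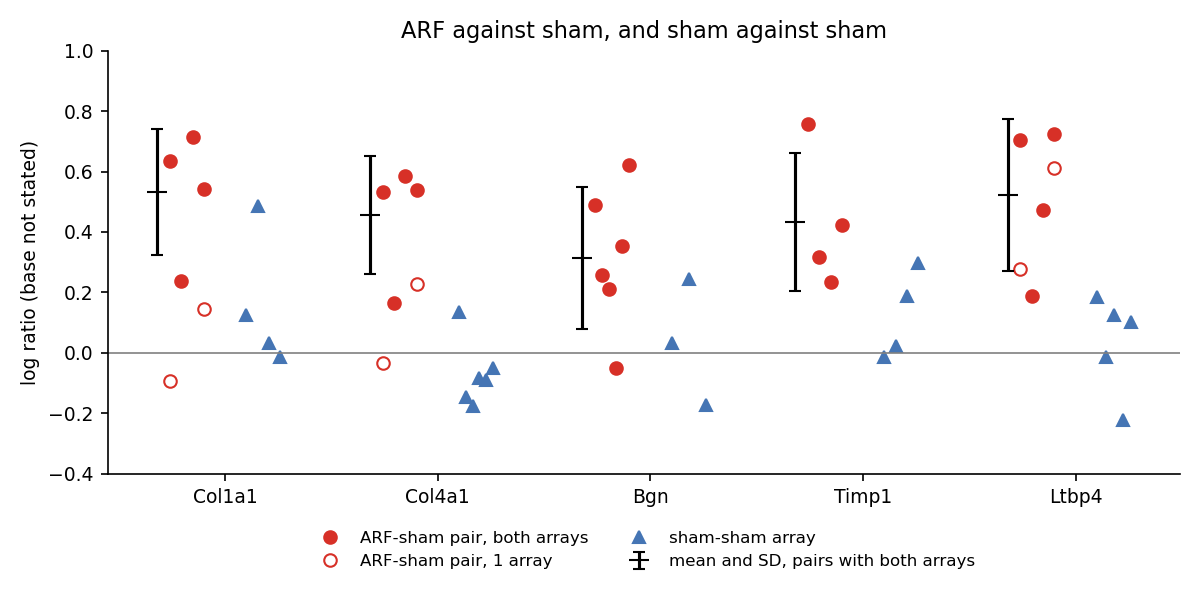
Log ratios (y axis, base not stated) for the 5 genes (x axis): filled circles are ARF-sham pairs with both arrays, open circles pairs with 1 array, triangles sham-sham arrays, and the bar the mean and SD of pairs with both arrays. The sign of a triangle depends on the channels, so only its size can be set beside the circles. For every gene the largest triangle size exceeds the lowest filled circle. It is 0.18 against 0.17 for Col4a1, 0.49 against 0.24 for Col1a1 and 0.30 against 0.23 for Timp1. For Bgn it is 0.24 against -0.05 and for Ltbp4 0.22 against 0.19. The filled circles of Col4a1 reach 0.58.

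Because the same sham rats were used on both kinds of array, the arrays could be chained, which set each ARF rat beside sham rats other than its own partner. Each such difference joins a sham-sham value to a pair value and repeats rats, so it is a description. Sham-sham values were read as the second channel over the first. This direction was assumed and not tested, and the counts below depend on it. The genes were chosen on the same pair values, so a higher ARF rat follows in part from the choice. The share over all clones was not computed. For Col4a1, the ARF rat was higher than the sham rat of another pair in 9 of 9 comparisons from pairs with both arrays, by 0.25 to 0.68, and in 12 of 12 with any array. Col1a1 was higher in 6 of 6, by 0.15 to 1.20, and in 7 of 8 with any array. Bgn was higher in 6 of 6 by 0.12 to 0.66, Timp1 in 6 of 6 by 0.26 to 0.77, and Ltbp4 in 7 of 7 by 0.06 to 0.91. In the assumed direction, for none of the 5 genes was an ARF rat with both arrays below a sham rat linked to its partner.

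Placed on 1 scale, with 0 as the mean of the linked sham rats, the 6 sham rats spanned 0.26 for Col4a1 and 0.65 for Ltbp4. Sham rats spanned 0.50 for Col1a1 over 5 rats, 0.42 for Bgn over 4 and 0.30 for Timp1 over 5. These levels use the assumed direction of the sham-sham values and the pair values on which the genes were chosen. The share over all clones was not computed, so nothing is read from the counts that follow. The ARF rats with both arrays were all above the highest sham rat for Col4a1 (4 of 4), Col1a1 (3 of 3) and Timp1 (3 of 3). For Bgn 3 of 4 were, the ARF rat of pair D at 0.19 being below its own sham partner at 0.24. For Ltbp4 3 of 4 were, and the ARF rat of pair B stood at -0.09, below most sham rats, although its own partner was the lowest sham rat at -0.28. An ARF level is its partner's sham level plus the pair value, so a low sham level lowers both, and the Ltbp4 level of sham rat B rests on array R4 alone. With 1-array pairs kept, 4 of 5 ARF rats were above every sham rat for Col1a1 and 5 of 6 for Col4a1, the exception being pair C for both. A loop of 5 sham-sham arrays tests how well such chains close. Over 466 clones the median size of the sum around it was 0.29. For Col4a1 the values summed to a size of 0.33, more than the 0.26 that its 6 sham rats spanned. That sum gathers the errors of 5 arrays, and the error of a single level was not measured.

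**Figure D4:**
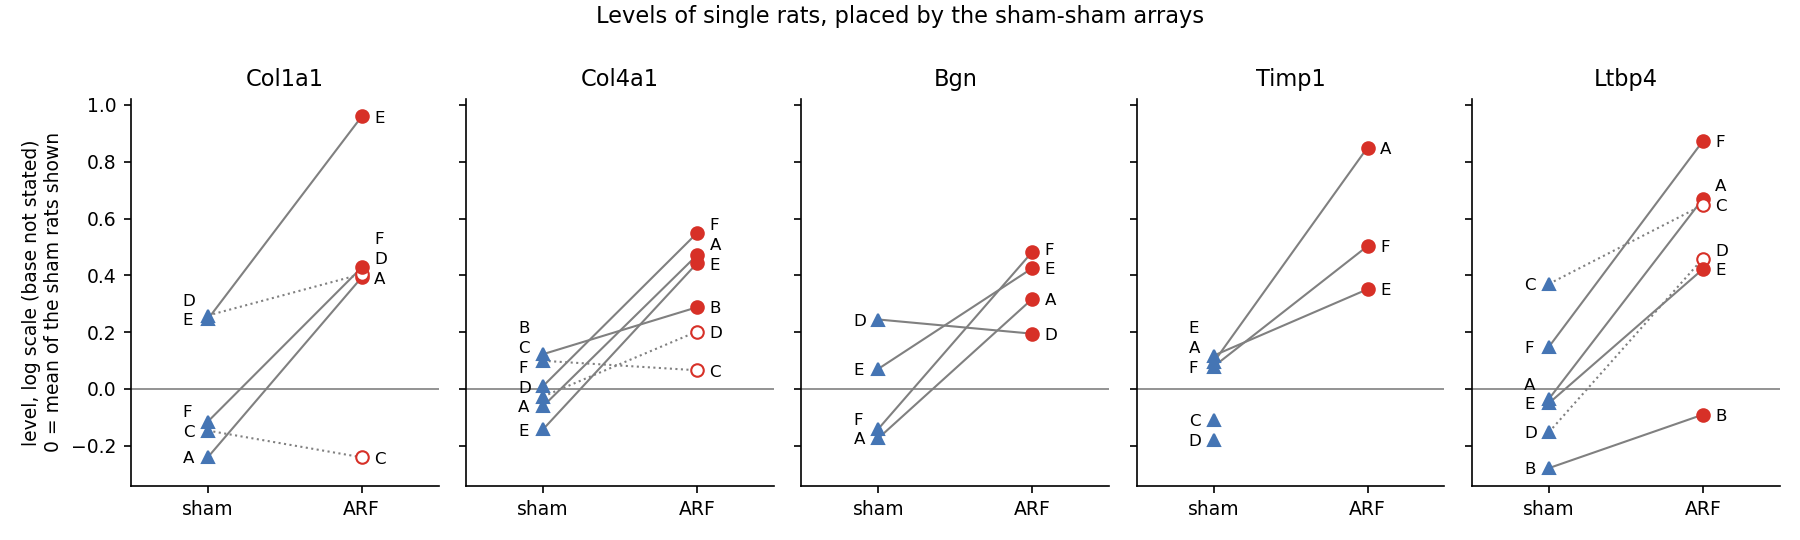
Level of single sham rats (triangles) and ARF rats (circles, open where the pair had 1 array) on a log scale of unstated base (y axis), 0 being the mean of the sham rats shown; letters name the rat pair and lines join the rats of a pair. For Col4a1 the 4 ARF rats with both arrays lie above all 6 sham rats, but its loop of sham-sham arrays failed to close by 0.33. Each ARF level is the partner's sham level plus the pair value, and the direction of the sham-sham values was assumed.

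Likeness over the 6 pairs, with 1-array pairs kept, was measured by Pearson's r against 638 genes; 6 points that share 12 arrays describe and do not test. Col1a1 was most like Col4a1 (r = 0.98), Btg1 (r = 0.97), an antiproliferative factor, and Spon1 (r = 0.97), a secreted matrix protein. Col4a1 was most like Ptpmt1 (r = 0.98), a mitochondrial phosphatase, then Col1a1 and Btg1 (r = 0.95). The 2 collagens were therefore each among the 3 genes nearest to the other, and leaving out the 2 pairs farthest from the median of Col1a1 left r at 0.94. The lowest r for both collagens belonged to Dusp5, a phosphatase of MAP kinases, at -0.97 and -0.99.

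Bgn was most like Anxa1 (r = 0.94), an annexin, Bud31 (r = 0.93), a splicing factor, and Acta2 (r = 0.92), and least like Ccnd1, cyclin D1 (r = -0.98). Acta2, the smooth muscle actin of myofibroblasts, differed little in size, its pair values running from -0.04 to 0.11, and without the 2 farthest pairs its r was 0.55. Ltbp4 was most like Csrp1 (r = 0.89), a LIM domain protein of the cytoskeleton, Errfi1 (r = 0.87), an inhibitor of EGF receptor signalling, and Csrp2 (r = 0.85), a relative of Csrp1, and least like Slit3 (r = -0.97), a secreted guidance protein. The likeness to Errfi1 rested on 2 pairs, since r was -0.37 without them. Among the genes themselves, the r of Ltbp4 was 0.71 to Col4a1, 0.57 to Col1a1 and 0.40 to Bgn. That of Bgn was 0.68 to Col1a1 and 0.66 to Col4a1. Over pair values both were thus less like the collagens than these were like each other. Without the 2 pairs farthest from the median of Ltbp4, its r was -0.05 to Col4a1 and 0.43 to Bgn, and without the 2 farthest from the median of Bgn the r of Bgn to Ltbp4 was 0.95, so these values rest on few pairs. Timp1, with 4 pairs, was left out of this measure. Over the 8 arrays that held both genes, its r was -0.20 to Col1a1, 0.29 to Col4a1, 0.39 to Bgn and 0.28 to Ltbp4. By single arrays the order of the others changed. Over 10 arrays the r of Bgn was 0.75 to Col4a1 and 0.53 to Col1a1, against 0.73 between the 2 collagens. That of Ltbp4 was 0.59 to Col1a1 and 0.58 to Col4a1.

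Markers of cell types that a whole kidney holds were followed beside these genes. Of 21 markers of myofibroblasts, fibroblasts and smooth muscle, 6 were measured, with a median of 0.18 and 5 of 6 above 0. Acta2, the smooth muscle actin of this list, had too few pairs with both arrays for the fit. Its 6 pair values, with 1-array pairs kept, ran from -0.04 to 0.11. S100a4, a calcium binding protein used as a fibroblast marker and also made by leukocytes, was higher in ARF at 0.70 ± 0.23 (SD, n = 4; adjusted p = 0.028, limma), in 4 of 4 pairs. Thy1, a surface glycoprotein of fibroblasts and other cells, was lowest at -0.04 ± 0.26 (SD, n = 4), and Vim, vimentin, was at 0.19 ± 0.48 (SD, n = 6). By pair the median of this list was 0.50 in A, 0.18 in B, 0.12 in C, 0.12 in D, 0.36 in E and 0.39 in F, so it was high and low in the pairs where the matrix genes were. S100a4 had no pair value in B, so its mean stayed at 0.70 without that pair, yet it did not pass there (adjusted p = 0.051, limma). It had too few pairs to test without A, C, E or F.

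Macrophage and antigen presentation markers, 3 measured of 23, were at 0.17 to 0.47, the highest being Lgals3, galectin 3, at 0.47 ± 0.58 (SD, n = 5; adjusted p = 0.272, limma). Their median by pair was 0.37 in A, 0.40 in B, 0.15 in C, 0.09 in D, -0.14 in E and 0.54 in F, the low median of E coming from the MHC class II genes RT1-Ba (-0.22) and RT1-Db1 (-0.14), while Lgals3 read 0.48 there. Of 16 kidney tubule markers, 11 were measured, with a median of -0.22 and 3 above 0. Egf, the growth factor made by the distal nephron, was lower in ARF at -0.34 ± 0.16 (SD, n = 6; adjusted p = 0.048, limma) and in 6 of 6 pairs, but did not pass without A, B, E or F (adjusted p from 0.086 to 0.311, limma), nor with sham in Cy3 alone, at -0.25 (adjusted p = 0.114, limma). Hao2, a peroxisomal oxidase, was lowest at -0.37 ± 0.27 (SD, n = 5) and Pvalb, parvalbumin of the distal convoluted tubule, highest at 0.12 ± 0.11 (SD, n = 6). In the replicate block fit, where 42 of 947 clones passed, 4 of the 11 tubule markers did, Egf, Hao2, Slc12a1 and Umod, all lower; with a dye term added, where 29 clones passed, Egf alone of the 11 did. Of podocyte and mesangium markers 1 was measured, Ptpro, at -0.02 ± 0.22 (SD, n = 4), and of endothelial markers 0 were, so vessels could not be followed. The part of these cell types in the matrix values was not tested.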

How the data were processed

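Total kidney RNA of 12 rats was measured on 18 two-channel spotted cDNA arrays, 12 ARF-sham and 6 sham-sham. The deposited values are log ratios normalized by the authors, per the labels, which name Imagene 4.1 for the raw scans; log base, direction and further steps are not given in the sources used here. Of the cells 57.1% were empty. Both dye orientations were read as pointing the same way in the deposited table, since within each pair their correlation over clones was positive, between 0.196 and 0.580. Rows 1152 apart are duplicate spots and were averaged. In the sham-sham columns adjacent blocks of 288 rows were exchanged, which raised the correlation of where values are present from -0.01 to 0.70; this was chosen after the values were seen. Gene names are from the platform annotation, updated through RefSeq: 1489 clones had 1 symbol, 32 several and 783 none.

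For each clone with both arrays in at least 4 pairs, the pair values were tested against 0 with limma 3.58.1 (R 4.3.3; eBayes) at a Benjamini-Hochberg adjusted p under 0.05 over all clones tested, which are the adjusted p-values printed; the halved dye difference and the sham-sham arrays (at least 4) were tested likewise. The fits were tested on simulated data. The pairing of arrays comes from the labels, which put the same 2 rats on both arrays. An alternative fit kept the 12 arrays separate and used the rat pair as a replicate block (consensus correlation 0.288, and 0.506 with a dye term). It counts the 2 arrays of a pair as partly separate, though they hold the same 2 RNAs. The number of rats, the empty cells and the spread between spots and dye orientations all limit the precision. Further alternatives were 1-array pairs, single orientations, median centring, other filters, trend and robust moderation, and leaving out each pair.

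The members and lists were chosen with earlier results of these data known. Named genes are the 5, list genes that passed or lay farthest from 0 on either side, and the nearest by r; Col5a2, Col2a1, Col11a1, Serpinh1, Dcn, Timp2, Mmp14, Mmp2, Mep1b, Adam17, A2m, Mmp23, Mmp12, Mmp13, Eln, RT1-Ba, RT1-Db1, Slc12a1, Umod, Ccn2 and Vim were named after their values were seen. Sequences are from RefSeq; 3 of the 5 genes were matched.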

Additional observations from a re-analysis of the deposited data

Results flagged for a closer look

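Among 19 groups of 4 to 6 values, 2 had a value far from the others, and about 1 such flag in 20 groups arises by chance. The pair B value of Col4a1, 0.17, lay well below those of pairs A, E and F, which were 0.53 to 0.58. Both arrays of pair B gave it, at 0.18 and 0.15. The Timp1 value of pair A with sham in Cy3, 0.97, lay well above the 0.16 to 0.27 of the other 3 arrays of that orientation, and its 2 spots read 0.90 and 1.04. The other array of pair A read 0.54, within the range of its orientation.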

How the results depend on the processing

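The ARF-sham means of all 5 genes stayed above 0 in each alternative that was run, leaving out pairs included. They also stayed within 1 SD of the value given, but leaving out 1 pair or taking the median cannot move a mean further. Col1a1 fell from 0.53 to 0.36 with 1-array pairs kept and to 0.35 with sham in Cy5 alone. Col4a1 fell from 0.46 to 0.34 with 1-array pairs kept. With only arrays holding both spots, Bgn rose from 0.31 to 0.43 and Timp1 from 0.43 to 0.59. The count of clones that passed for ARF against sham, 9, moved with nearly every choice (limma in all cases). It was 5 with 1-array pairs kept, 28 with only sham in Cy3, 16 with arrays centred on their medians, 4 with at least 3 pairs and 0 with trend and robust moderation (119 at an unadjusted p under 0.05). With the rat pair as a replicate block it was 42, and 29 with a dye term added. Leaving out a pair gave 0 to 19. The 5 genes, chosen on this contrast, numbered 1 among those that passed, 5 with the replicate block, 3 with the block and a dye term, 3 with median centring, and 0 with only sham in Cy3 or with trend and robust moderation. The genes nearest the threshold were Col1a1, Egf, Dbp and Fabp3 on one side (adjusted p = 0.048, limma) and St6gal1, at -0.38 ± 0.21 (SD, n = 6), on the other (adjusted p = 0.0502, limma), with Col4a1 and Ltbp4 just past it (adjusted p = 0.055, limma); for the genes chosen on this contrast these values are a description only. The 152 clones with a dye difference became 55 to 175 when a pair was left out, and the lowest counts, 55, 61 and 73, were without D, E and C. The 24 clones of the sham-sham arrays became 0 to 32 when an array was left out. With sham-sham rows as deposited, 1 of the 5 genes could be tested and it passed, Col4a1 at -0.40 (adjusted p = 0.038, limma). The exchange of row blocks reads those rows as other spots, which was inferred from where values are present. The cause of these changes was not tested. S100a4 did not pass with 1-array pairs kept (adjusted p = 0.121), with sham in Cy5 alone (0.088) or with trend and robust moderation (0.240), nor did Egf with 1-array pairs kept (0.081), sham in Cy3 alone (0.114), at least 3 pairs (0.060) or trend and robust moderation (0.165).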
